A study of Mus musculus with 4 samples.

Results

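C1Q macrophages without activation markers are the human tumor macrophages that carried complement C1q transcripts while staying at or under low limits for the genes of 9 other cell states. The members were 2230 of 16327 kept cells (1192 of 7361 in reaction 1 and 1038 of 8966 in reaction 2). A cell was kept when it had 601 to 6000 detected genes, a mitochondrial share under the study's limit and at least 60% of its hashtag UMIs (unique molecular identifiers, one per captured molecule) from 1 hashtag. A kept cell was a member when C1QA, C1QB and C1QC summed to 10 UMIs or more and no limit was passed. The limits were 2 UMIs for TGFB2 and ERRFI1, 1 for LYVE1, 9 for CXCL10, 3 for IL1A and CCL20, 3 for SLC2A1, HILPDA and ADM, 3 for MT1G and MT1H, 2 for TOP2A and MKI67, 1 for CD3D, CD3G and TRAC, and 2 for KRT18 and KRT19. Members were thus chosen by the measured UMI counts of these genes, whose levels are given only as a description.

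The cells came from MDA-MB-231 tumors, a human triple-negative breast carcinoma line, grown in the mammary fat pad of MISTRG mice. These mice carry human genes for M-CSF, GM-CSF and IL-3, were irradiated as newborns and received human fetal liver CD34+ cells. The sorted immune cells described here are therefore human, from a mouse host that also holds mouse immune cells. The age of the mice at harvest was not used here. The 7 untreated mice received no drug, and the 7 maraviroc mice drank maraviroc at 300 mg/l for 10 days from day 21, with all tumors taken on day 31. Living human CD45+ cells were sorted and captured in 2 droplet reactions. Reaction 1 held 4 untreated and 3 maraviroc mice, reaction 2 held 3 untreated and 4 maraviroc mice, and each mouse had its own hashtag antibody.

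C1q is the recognition subunit of the classical complement pathway, and macrophages are its main source in tissue. C1q-rich macrophages are known for clearing dying cells through receptors such as MERTK, and MAF is a transcription factor of resident-type macrophages. Maraviroc is a small-molecule drug that was given in the drinking water.

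The reactions differed in depth and in how cleanly hashtags separated. Reaction 1 held 29120 barcodes and 133089612 UMIs, and 20284 of its barcodes that passed the limits on genes and mitochondrial counts had no hashtag at 60%. Reaction 2 held 13582 barcodes and 175447534 UMIs, and 1195 barcodes were lost in the same way. The median member had 5962.5 UMIs in reaction 1 and 12709 in reaction 2. In all, 32 kept barcodes occurred in both reactions.

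The 5 marker genes of the members were all present. C1QA was at 1974 CPM (the gene's UMIs scaled to a fixed total of UMIs for its cells) and C1QB at 1492 CPM, but both were partly or wholly fixed by the rule. MAF, which the rule did not use, was at 478 CPM in members (lowest mouse 311, median 488, highest 576) and at 65.9 CPM in monocytes of the same tumors. MERTK, a receptor tyrosine kinase for apoptotic cells, was at 307 CPM (157, 310 and 442) against 43.3 CPM in monocytes. CD163L1, a scavenger receptor, was at 289 CPM (151, 289 and 423) against 10.5 CPM in monocytes. Each of the 3 genes was thus higher in the pooled members than in the pooled monocytes. The sum of the 5 markers did not set the members apart from other C1Q macrophages. It was 4540 CPM in members, 4391 CPM in C1Q macrophages with TGFB2 or ERRFI1 and 4848 CPM in CXCL10-high C1Q macrophages. C1QA, a gene of the rule, was the largest part of it in each. After cells were thinned to 4000 UMIs each, which left 1900 members, MERTK was detected in 50.5% of members and CD163L1 in 44.5%. The unthinned shares were 62.1% and 58.1%. In T-gated cells, which should lack both genes, the thinned shares were 5.5% and 4.2% of 2577 cells. The median depth before thinning was 9458 UMIs in members and 6929 UMIs in T-gated cells. MAF separated the groups less, with 75.9% of thinned members and 46.4% of thinned T-gated cells, and MAF is also a T cell gene.

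**Figure D1:**
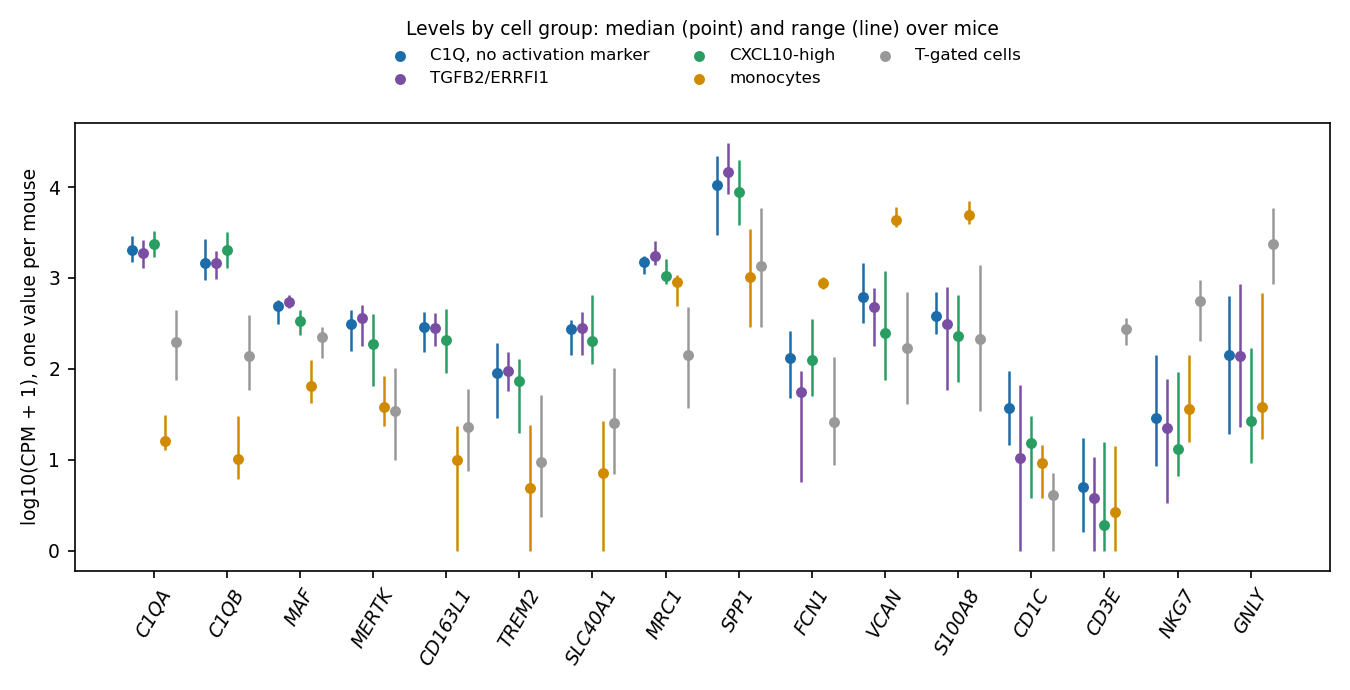
Levels of marker and macrophage genes in 5 groups of cells, as log10 of CPM plus 1, with a point for the median mouse and a line from the lowest to the highest mouse. MERTK and CD163L1 lie above the monocytes and T-gated cells in members, while FCN1, VCAN and S100A8 lie below the monocytes, which were gated on VCAN and FCN1.

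Markers of other cell types were uneven in the members. T cell receptor complex gene CD3E was at 4.3 CPM against 280 CPM in T-gated cells, and fibroblast gene DCN was at 0 in every mouse. T-gated cells were chosen for 5 or more UMIs of CD3D, CD3G and TRAC, which the rule held at 1 or less in members. Part of the CD3E gap was thus set by the gates. The T cell list as a whole summed to 248 CPM, almost all of it IL7R, the interleukin 7 receptor, at 234 CPM. IL7R was detected in 47.1% of thinned members and 22.4% of thinned T-gated cells. The NK cell list summed to 243 CPM, from 48.4 to 779 CPM over mice, with the granule gene GNLY most abundant at 186 CPM and KLRF1 at 0.7 CPM. The monocyte list (VCAN, FCN1, S100A8, S100A9, S100A12, CCR2) summed to 3238 CPM against 19393 CPM in monocytes. Monocytes were gated on 10 or more UMIs of VCAN and FCN1, so part of that gap was set by the gate. The list of CD1C+ dendritic cells summed to 87.3 CPM, with CLEC10A at 43.5, CD1C at 42.5 and FCER1A at 1.2 CPM. C1QA was at 190 CPM in T-gated cells, which should not make C1q.

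The NK signal followed the reaction. Members with 5 or more UMIs of KLRD1, NKG7, GNLY and KLRF1 made up 8.01% ± 1.48 (SD, n = 4) of the members of untreated mice in reaction 1 and 1.72% ± 0.599 (SD, n = 3) in reaction 2. The mean difference between the treatments was 0.264 percentage points (exact permutation, two-sided, 3432 regroupings of mice, p = 0.903). Counts of genes without these cells are given with the other alternatives.

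Each UMI stands for 1 transcript read at its 3' end, so CPM does not grow with gene length. Apart from ribosomal and mitochondrial genes, the most abundant transcripts of the members were MALAT1, the ferritin light chain FTL and SPP1. SPP1, which encodes osteopontin, was at 2998 CPM in the lowest mouse, 10472 CPM in the median mouse and 22078 CPM in the highest. SPP1 therefore varied over mice far more than FTL, at 12222, 15820 and 20924 CPM. TMSB4X, ACTB, FTH1, RBPJ, B2M, HLA-DRA and CD74 followed. RBPJ, the DNA-binding partner of Notch, was at 6255 CPM over all members and 1084 CPM in monocytes. RNASE1, a secreted ribonuclease, was at 2681 CPM against 78.0 CPM in monocytes. TMSB10, HLA-DRB1, S100A4, NEAT1, TPT1, VIM, NAMPT, SRGN and LGALS1 completed the 20 most abundant.

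Low levels of the rule's genes did not mean that other activation genes were low. The list of NF-kB and inflammatory genes, which includes IL1B, TNF and CXCL8, summed to 6709 CPM in members, 6941 CPM in monocytes and 8474 CPM in C1Q macrophages with TGFB2 or ERRFI1. Over mice the members' sum ran from 4460 to 12230 CPM. Among scavenger receptors, the mannose receptor MRC1 was at 1107, 1491 and 1738 CPM in the lowest, median and highest mouse. FOLR2, a folate receptor, was at 200, 286 and 464 CPM. TIMD4, a receptor of long-lived resident macrophages, was at 1.9 CPM over all members. The members were thus rich in MRC1 and nearly without TIMD4. TREM2, a lipid receptor, was at 27.4, 89.5 and 192 CPM, and the apolipoprotein gene APOE was at 6.4, 20.2 and 39.8 CPM.

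The upper limits removed most C1q-bearing cells. Of 5883 kept cells with 10 or more C1q UMIs, 37.9% were members and 2455 passed 1 limit. TGFB2 and ERRFI1 removed 731 cells by themselves, the proliferation genes TOP2A and MKI67 removed 565, CXCL10 removed 343, the metallothioneins 241 and the T cell genes 191. Cells just under the C1q limit, with 7 to 9 UMIs, numbered 266, had a median depth of 3058.5 UMIs and held MAF at 260 CPM. Cells just inside it, with 10 to 12 UMIs, numbered 207, had a median depth of 4426 UMIs and held MAF at 289 CPM. Reaction 1, the shallower, gave 80.5% and 75.4% of these cells. The other limits also cut through a continuum, for 189 members stood at 2 UMIs of TGFB2 and ERRFI1 and 116 cells stood just over that limit alone.

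Clustering without the rule's genes divided the members into 10 sub-clusters, which are described without a test. The largest, with 717 cells, led with CD163L1 (607 CPM against 139 in the other members), the selenium carrier SELENOP (367 against 111) and MERTK (563 against 185). It held between 14.9% and 43.5% of the members of a mouse. The next, with 466 cells, led with the nuclear receptor NR4A3 (1106 against 327), the amino acid transporter SLC16A10 (4501 against 1497) and the chemokine CXCL5 (235 against 88.1). Sub-cluster 4, with 198 cells, led with the chemokines CCL8 (283 against 98.1) and CXCL9 (153 against 56.9).

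Other sub-clusters carried genes of further cell types or states. Sub-cluster 3, with 217 cells, led with CRIP2, PDE4D and CRIP1 and had MERTK at 28.7 CPM, VCAN at 2257 CPM and CD1C at 194 CPM. It made up 1.49% of the members of one mouse and 40.9% of another. Sub-cluster 6, with 154 cells, led with the fatty acid carrier FABP4, and it held the monocyte genes AQP9, S100A12 and S100A8 (1800 CPM). Sub-cluster 5, with 160 cells, held DNA replication and repair genes such as CLSPN, BRCA1 and TYMS, although TOP2A and MKI67 were limited by the rule. Sub-cluster 8, with 106 cells, led with GNLY (4926 CPM), IFNG and NKG7, and 90.6% of it came from reaction 1. Sub-cluster 9, with 54 cells, led with PTGDS, JCHAIN and CCL17, and sub-cluster 10, with 40 cells, with CSF1 and CRYAB beside heat shock genes such as HSPA6. Over the 10 sub-clusters, MERTK ran from 28.7 CPM in sub-cluster 3 to 563 CPM in sub-cluster 1.

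**Figure D2:**
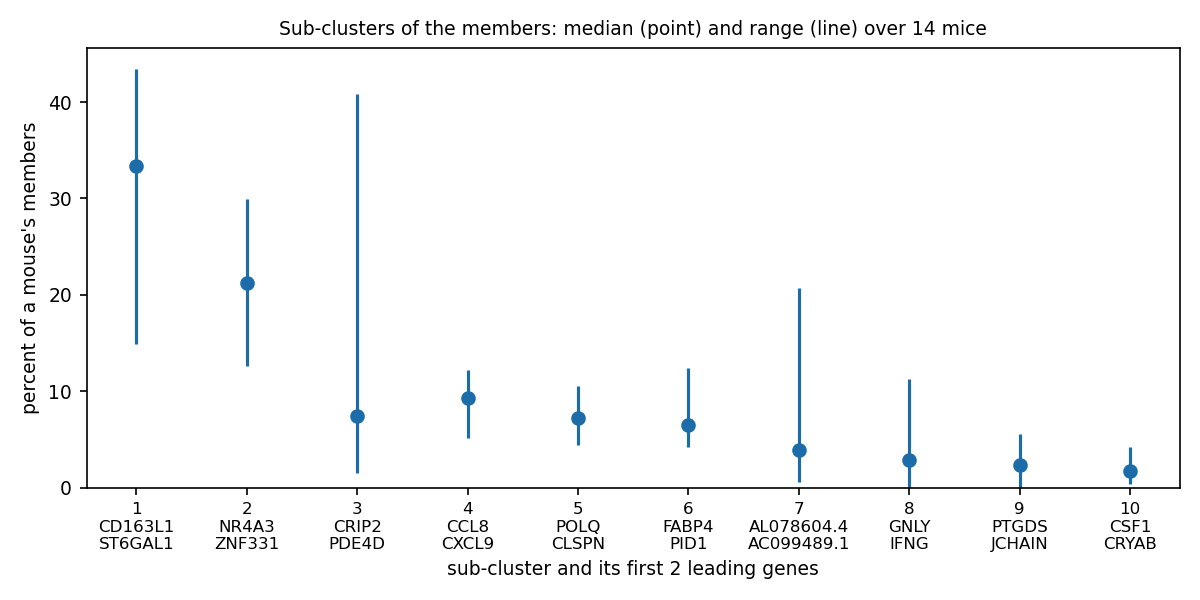
Share of each mouse's members, in percent, in each of 10 sub-clusters, with a point for the median and a line from the lowest to the highest of 14 mice. Sub-cluster 3 spans 1.49% to 40.9% and sub-cluster 1 spans 14.9% to 43.5%.

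The first comparison asked whether maraviroc changed how many such macrophages the tumors held. Members were 7.88%, 16.6% and 20.9% of kept cells in the lowest, median and highest untreated mouse, and 8.10%, 12.01% and 20.1% in the maraviroc mice, so the groups overlapped over nearly their whole range. The means were 15.1% ± 4.19 (SD, n = 7) and 12.9% ± 4.53 (SD, n = 7). The difference of -2.27 percentage points did not pass the test (exact permutation, two-sided, 3432 regroupings of mice, p = 0.344). Within reaction 1 the difference was 2.03 points (exact permutation p = 0.343 over 35 regroupings) and within reaction 2 it was -5.48 points (p = 0.257, exact, 35 regroupings). In reaction 2 all 4 maraviroc mice lay under the median untreated mouse, yet 1 untreated mouse lay lowest of all. As a share of cells at the C1q limit, members were 39.5% ± 6.29 in untreated and 36.2% ± 7.77 in maraviroc mice (SD, n = 7 each). In shares of cells, fewer such macrophages and more of the other sorted cells cannot be told apart.

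**Figure D3:**
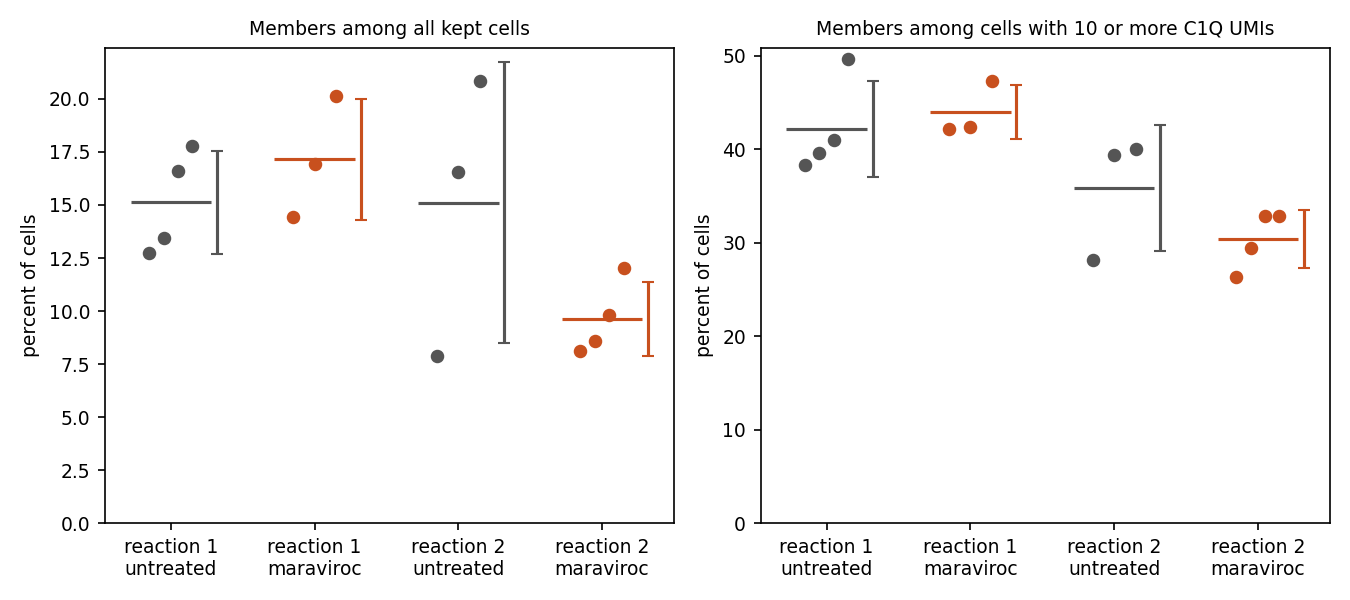
Share of members per mouse, in percent of all kept cells (left) and of kept cells with 10 or more C1q UMIs (right), by reaction and treatment. Points are mice, horizontal lines are means and bars are 1 SD, and the 4 maraviroc mice of reaction 2 lie between 8.10% and 12.01% of kept cells.

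The second comparison asked which genes differed between maraviroc and untreated mice within the members. No gene of 9893 tested passed an adjusted p of 0.05 in edgeR's quasi-likelihood test with the reaction as a covariate (0.0% called), while 374 genes (3.78%) had an unadjusted p under 0.05. DESeq2 called 0 genes with 266 under that unadjusted level. TREM2 was at 43.0, 99.2 and 205 normalized CPM in the lowest, median and highest untreated mouse and at 28.7, 83.2 and 131 in maraviroc mice (log2 fold change -0.31, SE 0.25). GPNMB, a lysosomal glycoprotein of lipid-laden macrophages, was at 96.5, 149 and 205 against 76.6, 115 and 144 (-0.30, SE 0.14). The 7 maraviroc mice all lay below the untreated median of GPNMB, but the ranges overlapped and the adjusted p was 0.9999. HMOX1, which degrades heme, was at 358, 767 and 928 against 335, 576 and 767 (-0.27, SE 0.18).

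The other genes that the study followed did not pass the test either. The log2 fold changes were 0.23 for the transferrin receptor TFRC (SE 0.23), -0.36 for the fatty acid carrier FABP5 (SE 0.23) and -0.21 for the cytokine IL1B (SE 0.37). They were -0.15 for the lipid droplet coat PLIN2 (SE 0.17) and -0.21 for the fatty acid importer CD36 (SE 0.23). CXCL10, also followed by the study, was capped by the rule and is not given. Several directions differed between the reactions. The log2 fold change was -0.95 in reaction 1 and 0.21 in reaction 2 for FABP5, and all 3 maraviroc mice of reaction 1 lay below the untreated mice. It was -0.72 and 0.22 for CD36, -1.17 and 0.74 for IL1B, -0.52 and 0.20 for PLIN2 and -0.17 and 0.59 for TFRC. The 6 genes with the lowest p that were higher with maraviroc were NPAS3, FBXO31, DPH6, CHSY1, PARP8 and PRAME, with log2 fold changes from 0.39 to 1.0. The corresponding 6 that were lower were VWCE, SNHG14, UTP20, DDX54, KCNK6 and MPRIP, from -0.80 to -0.35. CHSY1, which builds chondroitin sulfate, was at 87.8, 105 and 128 normalized CPM in untreated mice and 120, 137 and 233 in maraviroc mice. CD163L1 was at 161, 230 and 339 against 270, 309 and 414 (log2 fold change 0.44, SE 0.13), which gave an unadjusted p of 0.0025 in edgeR's test and an adjusted p of 0.9999.

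No gene of any list was called between the treatments. All 11 MHC class II genes tested had a positive log2 fold change (median 0.14, all genes 0.00), but 7 of 11 were negative in reaction 1 (median -0.07) and 0 of 11 in reaction 2 (median 0.26). Of 22 interferon-induced genes, 19 were positive (median 0.20), with medians of 0.06 in reaction 1 and 0.24 in reaction 2. All 12 heat shock genes were negative (median -0.14), yet only 6 of 12 in reaction 1 (median -0.02) against 12 of 12 in reaction 2 (median -0.31). All 10 cell cycle genes were negative as well (median -0.19), with 5 of 10 negative in reaction 1 (median 0.02) and 9 of 9 in reaction 2 (median -0.27). Of 14 hypoxia and glycolysis genes, 12 were negative (median -0.07), with 13 of 14 negative in reaction 1 and 4 of 14 in reaction 2. Of 23 NF-kB and inflammatory genes, 18 were negative (median -0.11). Apart from the interferon-induced genes, these lists differed in their share of negative genes between the reactions, a difference that was not tested for the lists.

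The treatment difference was then compared between the reactions. In the test of the reaction by treatment term, 1150 of 9893 genes (11.6%) had an unadjusted p under 0.05, and no gene passed after adjustment, the lowest adjusted p being 0.0513 in edgeR. These counts rest on the filter on low counts, for 459 of 24278 genes passed when every gene with 1 count was kept, and 62 did for treatment. Of the NF-kB and inflammatory list, 19 of 23 genes were under that unadjusted level, and the list's median term was 1.21 on the log2 scale, beside 0.00 over all genes. Within reaction 1, 22 of its 23 genes were lower with maraviroc (median log2 fold change -0.73). Within reaction 2, 22 of 23 were higher (median 0.58). The exception in both was CXCL5. No gene of the list passed adjustment for treatment within either reaction. The lowest adjusted p of the list in edgeR was 0.0763 in reaction 1 and 0.441 in reaction 2.

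TNFAIP3, a feedback inhibitor of NF-kB, was picked for the lowest interaction p of the list and is given mouse by mouse. Its values describe that gene and are not separate support for the list. In reaction 1 TNFAIP3 was at 177, 323, 207 and 220 normalized CPM in the untreated mice and at 114, 92.7 and 95.4 in the maraviroc mice. In reaction 2 it was at 125, 103 and 89.2 in the untreated mice and at 127, 202, 235 and 146 in the maraviroc mice. The treatment groups did not overlap in either reaction, and the untreated mice of reaction 2 lay near the maraviroc mice of reaction 1. The interaction term was 1.97 on the log2 scale (edgeR, adjusted p = 0.0513).

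Other genes of the list are given by their ranges, and NFKBIA and CXCL3 were also picked for a low interaction p. NFKBIA, the inhibitor that retains NF-kB in the cytoplasm, was at 537 to 743 normalized CPM in untreated and 289 to 362 in maraviroc mice of reaction 1, and at 208 to 329 and 327 to 564 in reaction 2. The neutrophil chemokine CXCL3 was at 607 to 716 and 192 to 402 in reaction 1, and at 204 to 281 and 247 to 577 in reaction 2. In both genes the groups were apart in reaction 1 and overlapped in reaction 2. IL1B was at 268, 1217, 461 and 444 in untreated and 274, 208 and 322 in maraviroc mice of reaction 1. In reaction 2 it was at 203, 191 and 220 against 339, 485, 250 and 305, without overlap. Over the list, 7 of 23 genes had every maraviroc mouse of reaction 1 below every untreated mouse, beside 3.76% of all genes. For the opposite order in reaction 2 it was also 7 of 23, beside 4.23% of all genes.

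MERTK had a term of the opposite sign. It was at 174 to 234 normalized CPM in untreated and 309 to 371 in maraviroc mice of reaction 1, which did not overlap, and at 333 to 424 and 164 to 370 in reaction 2, which did. The interaction term was -1.20 on the log2 scale (edgeR, adjusted p = 0.115). The make-up of the members differed between mice, for sub-cluster 3, with MERTK at 28.7 CPM, ran from 1.49% to 40.9% of a mouse's members. CFP, one of its leading genes, averaged 24.8 normalized CPM in untreated and 17.5 in maraviroc mice of reaction 1. For reaction 2 only the highest mouse is given, at 23.0 for untreated and 64.7 for maraviroc, each value from a single mouse. Means and highest values are unlike measures, so the reactions are not compared by them. The part of sub-cluster 3 in the MERTK values was not tested. In other lists, no gene passed adjustment either, and the counts under the unadjusted level stand beside 11.6% of all genes. They were 6 of 10 matrix genes (median term 1.17), 8 of 19 macrophage transcription factors (0.14), 5 of 12 immediate early genes (0.43) and 6 of 14 complement genes and receptors (0.18), without C1q genes. They were 4 of 12 monocyte genes (0.92) and 2 of 12 heat shock genes (-0.25). The part of these genes, of depth and of the handling of each reaction in the NF-kB values was not tested.

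**Figure D4:**
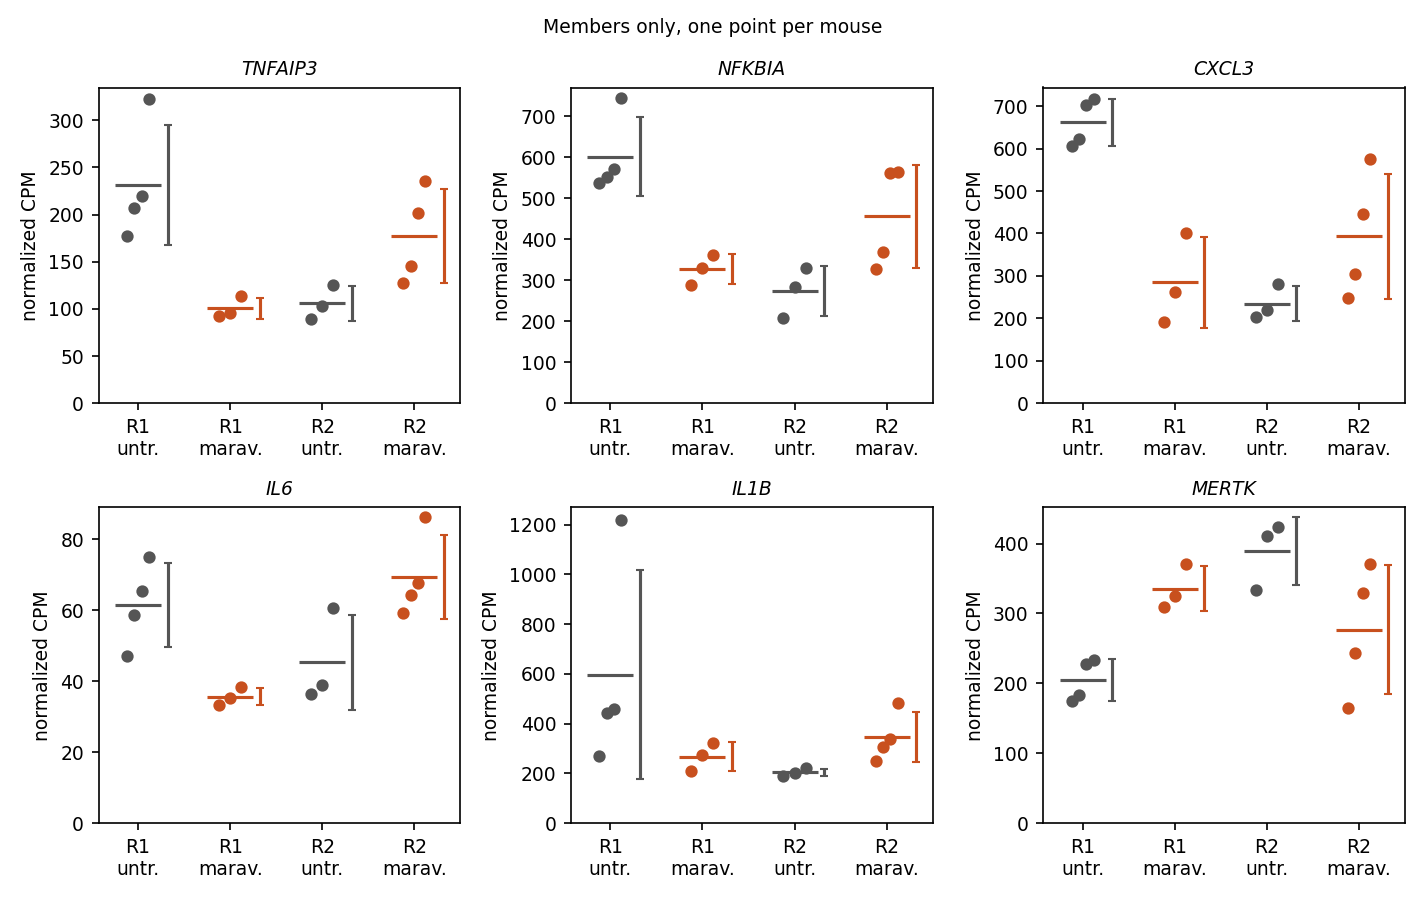
Normalized CPM of 5 NF-kB and inflammatory genes and MERTK in the members, 1 point per mouse, with the mean as a line and 1 SD as a bar, for reaction 1 (R1) and reaction 2 (R2). TNFAIP3, NFKBIA, CXCL3 and IL6 were picked for the lowest interaction p of their list. TNFAIP3 is at 177 to 323 in untreated and 92.7 to 114 in maraviroc mice of reaction 1, and at 89.2 to 125 and 127 to 235 in reaction 2.

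The third set of comparisons placed the members beside other cells of the same mice. The genes of the rule and of the other group's gate were left out of each test. Genes that vary together with a gate gene across cells are selected along with it, so the counts describe how the gated groups differ and are not independent of the gates. Mice entered a test when they had at least 10 cells of both groups.

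Against C1Q macrophages with 3 or more UMIs of TGFB2 and ERRFI1 and no other limit passed, 13 mice gave 8780 genes. Members were higher in 1017 genes (11.6%) and lower in 1231 (14%). With every gene of at least 1 count kept, 1578 of 25109 genes were higher and 923 lower, so the balance turned. Most MHC class II genes (8 of 11) and cell cycle genes (6 of 7) were higher in members, and all 12 immediate early genes, 14 of 22 NF-kB and inflammatory genes and 10 of 17 lipid-associated genes were lower. Of 11 MHC class II genes, 8 were higher and 0 lower (median log2 fold change 0.35, all genes 0.02), such as HLA-DPA1 at 1051, 1564 and 2242 normalized CPM in the lowest, median and highest mouse against 799, 1055 and 1376. Markers of other cells moved with these genes. The list of CD1C+ dendritic cells summed to 87.3 CPM in members and 32.3 CPM in the TGFB2/ERRFI1 cells, and 4 of 12 monocyte genes were higher in members and 0 lower. Within the members, HLA-DRA was at 7839 CPM in sub-cluster 3 and 9281 CPM in sub-cluster 9, against 3483 CPM in sub-cluster 1, and the part of these sub-clusters in the MHC class II values was not tested. Among chemokine receptors, the monocyte recruitment receptor CCR2 (1.003) and CX3CR1 (0.75) were higher in every mouse, while CXCR4 was lower (-1.03).

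All 12 immediate early genes were lower in members (median -0.39). EGR1, a transcription factor induced within minutes of a stimulus, was at 40.4, 53.8 and 114 against 65.5, 131 and 193 (-1.01, SE 0.13, edgeR adjusted p = 3.64e-06). Of 22 NF-kB and inflammatory genes, 14 were lower and 1 was higher (median -0.45), with CXCL5 (-1.35), CXCL1 (-1.21), CXCL8 (-0.99) and PTGS2 (-0.95) leading and IL1B as the higher one. Of 17 lipid-associated genes, 10 were lower and 3 higher. The cholesterol exporters ABCA1 (-0.94) and ABCG1 (-0.79) and SPP1 (-0.89) were lower, and SPP1 was at 3020, 10603 and 23013 against 8795, 15076 and 33272. Among study genes, GPNMB (-0.78) and TFRC (-0.93) were lower and CD36 (0.67) higher. Of 7 cell cycle genes, 6 were higher, among them TYMS (1.15), and of 21 lysosomal genes 9 were lower, led by the protease LGMN (-0.86).

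Among genes with a mean of at least 20 normalized CPM in the higher group, the largest differences with the same sign in 13 of 13 mice were those of DLGAP2 (1.47), CD1C (1.31), CRIP1 (1.28), TNNT1 (1.22), JUP (1.07), SUSD3 (0.93), JAML (0.90), TIMP1 (0.88), LTA4H (0.86) and LYZ (0.84) among higher genes. CD1C presents lipid antigens, TIMP1 inhibits metalloproteinases, LTA4H makes leukotriene B4 and LYZ is lysozyme. CD1C and CRIP1 were also high in sub-cluster 3. Among lower genes they were CABLES1 (-1.82), YES1 (-1.45), CD28 (-1.45), ZNF141 (-1.39), NCKAP5 (-1.38), AATK (-1.36), CXCL5 (-1.35), SPARCL1 (-1.34), ELL2 (-1.30) and SLC16A10 (-1.28). SLC16A10 was at 1469, 2060 and 3387 normalized CPM in members against 3804, 4762 and 6991, so no member value reached the other group's. MARCO, a scavenger receptor, was higher in members (1.60) in 12 of 13 mice, while the scavenger receptor MSR1 was lower (-0.80) in all 13.

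Against CXCL10-high C1Q macrophages, with 10 or more CXCL10 UMIs and no other limit passed, 12 mice gave 8020 genes. Members were higher in 221 genes (2.76%) and lower in 509 (6.35%). The balance depended on the filter on low counts, for 541 of 24267 genes were higher and 392 lower when every gene with 1 count was kept. The difference was led by interferon-induced genes, of which 23 of 23 were lower in members (median log2 fold change -1.50, all genes 0.01). GBP5, a guanylate-binding protein of host defense, was at 17.0, 26.5 and 53.9 normalized CPM against 133, 220 and 284 (-2.79, SE 0.14, edgeR adjusted p = 3.96e-12), without overlap. CXCL11 (-5.18), CXCL9 (-3.15), IFIT2 (-2.73) and the ligand TNFSF10 (-2.58) were lower in all 12 mice. CXCL10, CXCL9 and CXCL11 all signal through CXCR3.

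Chemokine and checkpoint genes were lower as well. Of 8 macrophage chemokines, 5 were lower, led by the monocyte chemoattractant CCL8, at 42.8, 107 and 375 against 386, 1172 and 1788 (-3.20, SE 0.22, edgeR adjusted p = 1.36e-09). Of 16 inhibitory receptors and checkpoint ligands, 10 were lower and 1 was higher (SIGLEC9, 0.59). CD274, which encodes PD-L1, was at 4.1, 14.5 and 28.4 against 26.7, 52.2 and 112 (-1.80), and PDCD1LG2, which encodes PD-L2, was also lower (-0.89). The metallothionein MT2A was lower (-1.40), although the rule limited MT1G and MT1H in both groups. No MHC class II gene was called, and the list's median was -0.17.

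Among genes higher in members than in CXCL10-high macrophages were the lipid-sensing receptor PPARG (1.60), VCAN (1.43), HDAC9 (1.24), ACOT11 (1.11), FAM13A (1.09), CLEC5A (0.98), RAB11FIP1 (0.97), CRIP1 (0.91), SSBP3 (0.88) and AC008014.1 (0.87). PPARG was at 19.9, 35.1 and 69.6 normalized CPM against 0.0, 11.2 and 40.6, and was higher in 12 of 12 mice. Genes of monocytes moved with these genes, for 2 of 10 monocyte genes were higher in members and 0 lower. PPARG averaged 350 normalized CPM in monocytes against 38.9 in members. Within the members, VCAN was at 2257 CPM in sub-cluster 3 and 2212 CPM in sub-cluster 6, against 218 CPM in sub-cluster 1. CRIP1 was also high in sub-cluster 3. The part of these sub-clusters in the values was not tested. Of the study genes, PLIN2 (0.86), CD36 (0.68), HMOX1 (0.65) and GPNMB (0.51) were higher. PLIN2 was at 212, 304 and 527 against 84.4, 181 and 438, so the ranges overlapped between mice although 11 of 12 mice had the higher value in members.

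Against monocytes, with 10 or more UMIs of VCAN and FCN1 and at most 1 C1q UMI, 14 mice gave 9107 genes. These monocytes also had at most 1 UMI of CD1C, CLEC9A and FCER1A and passed no upper limit of the rule. Monocytes over the limits for CXCL10, IL1A and CCL20, hypoxia, metallothionein or proliferation genes were therefore not among them. Members were higher in 2802 (30.8%) and lower in 2735 (30%), so most genes tested were called, and the counts of lists are read beside that. All 11 MHC class II genes (median log2 fold change 0.65) and all 12 heat shock genes (median 0.45) were higher in members, beside 0.02 over all genes. Of 21 lysosomal genes, 16 were higher, and of 20 scavenger and efferocytosis receptors, 14 were higher. CD163L1 was at 158, 276 and 415 normalized CPM against 0.0, 9.2 and 23.7 (4.81, SE 0.15, edgeR adjusted p = 7.1e-18), without overlap. The lectin CD209 (5.55), FOLR2 (3.49) and AXL (3.07) were higher in 14 of 14 mice.

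Beside the 60.8% of all genes called, 7 of 12 iron and heme genes were higher and 3 lower, 9 of 15 lipid-associated genes were higher and 3 lower, and 6 of 9 matrix genes were higher and 3 lower. The iron exporter SLC40A1 was at 147, 277 and 323 against 0.0, 6.2 and 27.3 (5.11, SE 0.21, edgeR adjusted p = 5.95e-16). HMOX1 was higher in members (1.01) and SLC11A1, a transporter of iron out of phagosomes, lower (-1.40). The phospholipid transfer protein PLTP (4.9997), TREM2 (3.66) and SPP1 (3.24) were higher, while PPARG (-3.16) and CD36 (-1.77) were lower. The metalloproteinases MMP12 (5.73), MMP14 (3.61) and MMP9 (3.31) were higher, and thrombospondin THBS1 was lower (-2.04). The complement gene C2 (3.31) and the complement receptor VSIG4 (2.63) were higher, and properdin CFP was lower (-2.27).

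Chemokine and inflammatory genes went both ways. Of 8 macrophage chemokines, 7 were higher in members, led by CCL13 (5.03), CCL18 (4.25) and CCL8 (3.70). Of 23 NF-kB and inflammatory genes, 11 were higher, such as CXCL1 (3.38), and 8 were lower, such as G0S2 (-2.57). IL1B was at 190, 288 and 1189 normalized CPM in members against 430, 770 and 1862 in monocytes (-1.46, SE 0.10, edgeR adjusted p = 9.67e-12) and lower in 14 of 14 mice. CCR2 (-2.06) and CXCR4 (-1.27) were lower. Of 9 cholesterol synthesis and uptake genes, 7 were lower. Among growth factor receptors, the M-CSF receptor CSF1R was higher (0.85) and the IL-3 receptor chain IL3RA was lower (-1.98).

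Under the same limit of 20 normalized CPM, the largest differences from monocytes with the same sign in every mouse included SELENOP (5.61), FCGBP (5.64), FRMD4A (5.35), IGSF21 (6.44), LINC01605, NCKAP5, CD28 and GAL3ST4 among higher genes. CD28, the costimulatory receptor of T cells, was at 14.6, 35.5 and 74.1 normalized CPM in members and at 0.0, 0.0 and 2.0 in monocytes. CD3E was near 0 in both, but the limit on other CD3 genes applied to both groups. Lower genes included the calgranulins S100A12 (-4.62) and S100A8 (-3.76), the water channel AQP9 (-3.84), CSGALNACT1 (-3.83), CLU (-3.77), LRG1 (-3.68), MPP7 (-3.68), ADGRE3 (-3.55) and TRGC1 (-3.50). S100A8 was at 239, 373 and 741 against 4032, 5009 and 7371, without overlap. Of 12 monocyte genes, 11 were lower in members and 1 was higher.

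**Figure D5:**
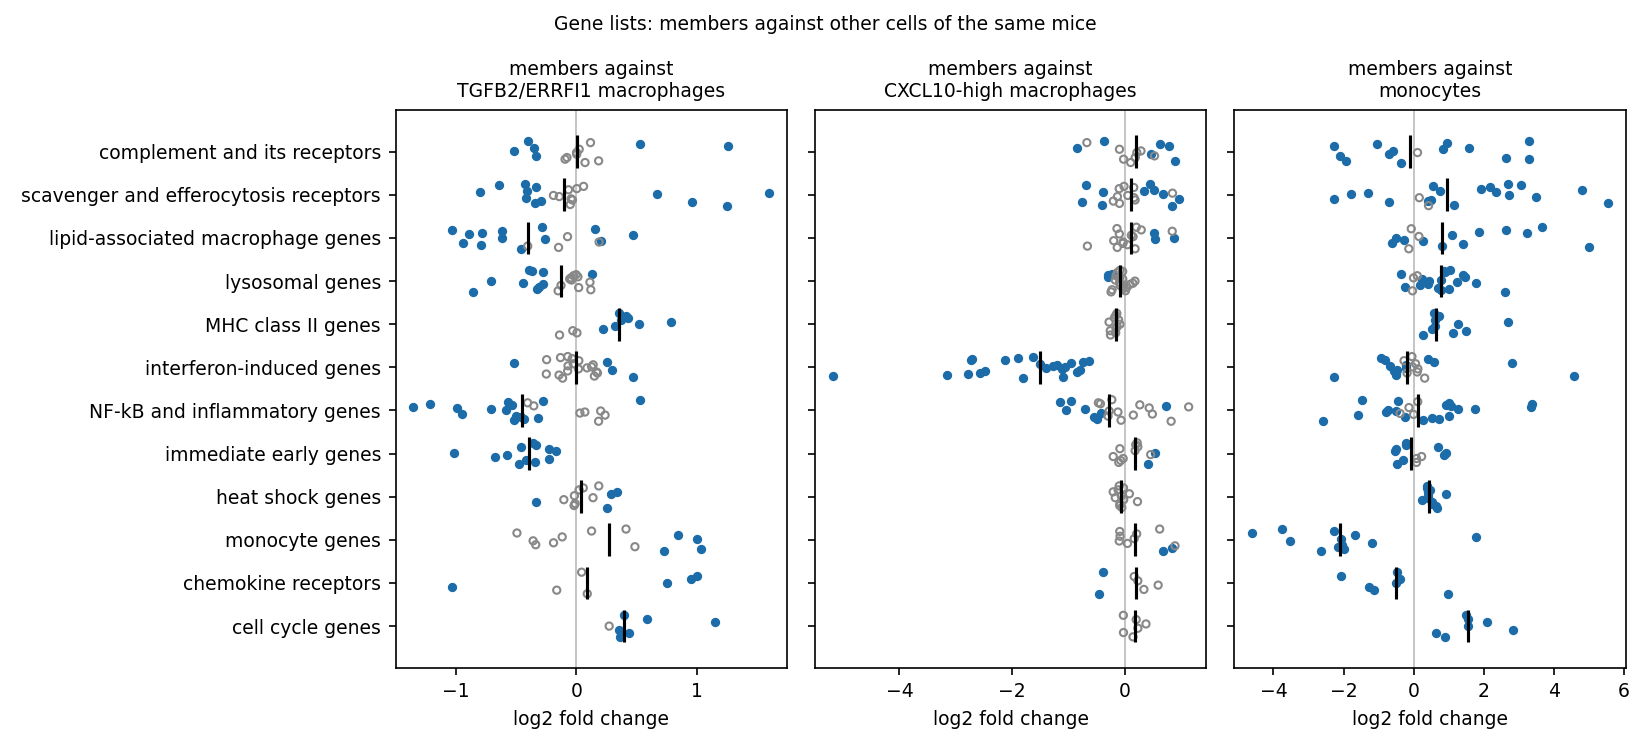
Log2 fold change of the genes of 12 lists, members against C1Q macrophages with TGFB2 or ERRFI1 (left), CXCL10-high C1Q macrophages (middle) and monocytes (right). Each point is a gene, filled when its adjusted p was under 0.05 in edgeR, and black lines are list medians, such as -1.50 for the interferon-induced genes in the middle panel.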

How the data were processed

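UMI counts per gene and hashtag in 2 reactions were deposited by the authors as unnormalized tables made with Cell Ranger 9.0.1 on GRCh38, for barcodes called as cells. Treatment was read from the hashtag names. Cells were assigned and gated by the limits in the report, no doublet caller was run, and cells with under 60% of hashtag UMIs from 1 hashtag were left out. The members and gene lists were chosen with earlier results of these data known. XIST and Y-linked genes were left out.

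Counts were summed per mouse and tested with edgeR 4.0.16 (TMM, filterByExpr, quasi-likelihood, Benjamini-Hochberg over all genes tested) in R 4.3.3, with the reaction or the mouse as covariate. DESeq2 1.42.0 was an alternative. Shares were compared by exact permutation of mice, which are separate animals. Sub-clusters used leidenalg 0.10.2 at resolution 0.6 on 20 components of 1500 genes without the rule's genes.

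Named genes were the markers, the study's genes, the 6 lowest p in each direction for treatment, and for each other comparison up to 4 called genes per list and the 10 largest differences in each direction with the same sign in every mouse and 20 CPM. Summed UMIs of members ran from 829453 to 3163701 per mouse. Values of some genes are not reported here.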

Additional observations from a re-analysis of the deposited data

Results flagged for a closer look

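Within the members, 2 values stood far from the other mice of their treatment, among 56 groups of mice checked, where chance flags about 1 in 20. IL1B was at 1217 normalized CPM in untreated mouse 2 of reaction 1 and at 461 in the next mouse. MPRIP was at 34.6 normalized CPM in untreated mouse 3 of reaction 2 and at 29.8 in the next mouse.

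The difference between maraviroc and untreated mice was compared between the reactions for 10 values, the share of members and the study's genes that the rule did not use, by exact permutation within reactions (1225 regroupings, two-sided, log2 of normalized CPM plus 1 for genes). In the members, reaction 2 minus reaction 1 was 1.65 for IL1B (exact permutation p = 0.0098, Benjamini-Hochberg adjusted p = 0.098 over the 10 values) and 0.716 for PLIN2 (exact permutation p = 0.0473, adjusted p = 0.171). Both were under an unadjusted p of 0.05, and neither passed after adjustment. For the share of members among kept cells, reaction 2 minus reaction 1 was -7.52 percentage points (exact permutation p = 0.0784, adjusted p = 0.196). On the log2 scale of the genes, it was 1.88 for TNFAIP3, 1.59 for NFKBIA, 1.95 for CXCL3 and 1.38 for IL6, which were picked for the lowest interaction p of their list and are given without a test. Over the 9893 genes that passed the filter on low counts, no interaction passed adjustment in edgeR.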

How the results depend on the processing

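For the share of members, the difference of -2.27 points ranged from -3.48 to -1.31 when 1 mouse was left out, and it turned to 2.03 in reaction 1 alone. No replicate block was used between mice, since mice carry no shared numbers, and each mouse was its own block between cell groups. With every gene of at least 1 count, 62 of 24278 genes passed for treatment and 459 for the interaction, the latter chosen after seeing the data. For treatment, 2 of the named genes gained a call under this alternative. Calls within single reactions, which have fewer mice, are given for reaction 1 and then reaction 2. They numbered 1123 and 1111 against TGFB2/ERRFI1 macrophages, 267 and 359 against CXCL10-high macrophages, and 3606 and 5016 against monocytes. For treatment, 0 genes were called in each reaction alone. With 1 mouse left out, calls ranged from 2020 to 2238, 598 to 709 and 5240 to 5437, and stayed at 0 for treatment.

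Among study genes in the treatment comparison, reaction 2 alone gave positive log2 fold changes for CD36 (0.22), FABP5 (0.21), IL1B (0.74) and PLIN2 (0.20), and reaction 1 alone gave -0.17 for TFRC. With 1 mouse left out, IL1B ranged from -0.39 to 0.14, PLIN2 from -0.22 to -0.012, TREM2 from -0.41 to -0.10, CD36 from -0.35 to -0.088, FABP5 from -0.51 to -0.22, HMOX1 from -0.40 to -0.16 and TFRC from 0.078 to 0.39. Without cells that carried NK cell RNA, an alternative chosen after seeing the data, the share differed by -2.34 points, and 0, 2059, 789 and 5422 genes passed. A gate on UMIs is met more easily in deeper cells. Among cells of 5000 to 20000 UMIs, which are fewer, calls numbered 0 for treatment and 2145, 499 and 5083 for the other groups. As shares of genes tested these were 27%, 7.27% and 60.3%, beside 25.6%, 9.1% and 60.8% without that limit. Against CXCL10-high macrophages, 23 named genes were then no longer called while 48 were. Among other alternatives, named genes lost that call in reaction 1 alone (37) and reaction 2 alone (29). They also lost it at a hashtag share of 80% (16) and at a C1q limit of 20 UMIs (12).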
